A study of Mus musculus with 9 samples.

Results

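The genes described here code for membrane transporters of sugars, lactate and other monocarboxylates, and amino acids. They are the 51 genes whose symbols begin with Slc1a, Slc2a, Slc3a, Slc7a or Slc16a and a digit and that stand in both of the study's expression tables, out of 36442 genes in the epidermal table and 24016 gene symbols in the regulatory T cell (Treg) table. The Slc1 family gave 7 of them, Slc2 gave 12, Slc3 gave 2, Slc7 gave 16 and Slc16 gave 14. The choice used symbols alone, not measured values. Of the 51, Slc7a6os is not a transporter but the gene next to Slc7a6 on the opposite strand (mm9, chr8:108724338-108734833, against chr8:108692775-108722604 for Slc7a6). Counts of transporters below include it, and family sums per kb leave it out. Slc2a4rg-ps matched in the Treg table alone and was not counted as a member.

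The study sequenced RNA of sorted mouse cells in 9 libraries. Mi2 epidermis (2 libraries) and WT epidermis (2 libraries) were keratinocytes of adult skin epidermis. TSLPR– Treg_Mi2 (1 library), TSLPR WT Treg_Mi2 (2 libraries) and Ctl Treg (2 libraries) were Tregs of skin-draining lymph nodes. Mi2 stands for the chromatin remodeller Mi-2β, whose gene is Chd4. The column names mark the Mi2 epidermis and TSLPR WT Treg_Mi2 libraries as knock-out and the TSLPR– library as DKO, which is not spelled out. Treg_Mi2 is read here as Tregs of animals with Mi2 epidermis, after the study's title, since the labels do not say which cells lack Mi-2β. TSLPR, encoded by Crlf2, binds the cytokine TSLP. The labels give no age beyond adult skin, no strain, sex, Cre driver or allele, no number of animals per library, and no account of how TSLPR– cells were made. Nothing says that replicates came from separate animals, so p-values measure only the spread between these libraries, which may be technical.

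Chd4 stood at 734 and 1207 normalized reads in Mi2 epidermis and at 1607 and 1942 in WT epidermis. Crlf2 stood at 51.5 normalized reads in TSLPR– Treg_Mi2, at 816 and 715 in TSLPR WT Treg_Mi2 and at 395 and 742 in Ctl Treg, so both targeted genes followed the labels. In Tregs, Chd4 stood at 15392 in TSLPR– Treg_Mi2, at 12374 and 13659 in TSLPR WT Treg_Mi2 and at 11757 and 15129 in Ctl Treg. Foxp3, the Treg lineage factor, stood between 11159 and 15371 in the 5 Treg libraries. Krt5, Krt14 and Dsp were the 3 most abundant keratinocyte markers in every epidermal library, and Krt5 and Krt14 had no reads in any Treg library. Epidermal libraries held 5682391 to 8913804 reads and Treg libraries 21849381 to 32238992. The share of reads from mitochondrially encoded genes was 29.72% and 15.53% in Mi2 epidermis and 13.77% and 12.85% in WT epidermis. Leaving these genes out of the scaling moved the median log2 change of all epidermal genes to -0.27, against -0.03 as deposited, and leaving out the 50 most abundant genes moved it to -0.16; no called epidermal transporter turned its direction under either.

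As background, Slc2 proteins (GLUTs) let hexoses cross membranes down their gradient, and Slc16 proteins (MCTs) include the proton-coupled carriers of lactate and pyruvate, which need the chaperones basigin or embigin to reach the cell surface. Slc1 proteins carry glutamate or small neutral amino acids with sodium. Slc7 light chains carry large neutral, cationic or cystine substrates, and several of them work only when joined to an Slc3 heavy chain. In T cells, activation and growth signals are known to raise glucose, glutamine and leucine uptake, and leucine entering through the Slc7a5 and Slc3a2 pair feeds mTORC1 signalling. In epidermis, basal keratinocytes rely on Slc2a1 for glucose, and proliferating or wounded epidermis is known for high glycolysis.

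RefSeq promoter windows (GRCm38.p6, the 250 bases before the first listed start of each gene) were at hand for 37 of the 51 genes. Other starts of a gene were not searched. The windows of Slc16a1, Slc16a3, Slc2a1 and Slc7a11 are shown because these genes were higher in Mi2 epidermis and hold a motif known for such transporters. In the first 3 lines, capitals mark ACGTG on either strand, the core of the hypoxia response element; where it reads CACGTG it is also an E-box, the motif that Myc proteins bind, so the 2 motifs overlap there. In the last line, capitals mark TGATGNAAN on either strand, the amino acid response element bound by ATF4.
Slc16a1 (chr3:104638414-104638663, plus strand): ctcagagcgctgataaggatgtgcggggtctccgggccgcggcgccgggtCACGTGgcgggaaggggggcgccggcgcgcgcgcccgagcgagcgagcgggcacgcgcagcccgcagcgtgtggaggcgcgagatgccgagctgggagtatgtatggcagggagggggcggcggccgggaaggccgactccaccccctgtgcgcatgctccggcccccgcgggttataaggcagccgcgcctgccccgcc
Slc16a3 (chr11:120948817-120949066, plus strand): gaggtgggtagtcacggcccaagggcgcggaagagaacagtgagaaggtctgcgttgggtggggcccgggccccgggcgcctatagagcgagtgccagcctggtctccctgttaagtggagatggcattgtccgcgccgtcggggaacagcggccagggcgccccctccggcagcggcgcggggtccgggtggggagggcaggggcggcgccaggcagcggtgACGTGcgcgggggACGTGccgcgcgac
Slc2a1 (chr4:119108495-119108744, plus strand): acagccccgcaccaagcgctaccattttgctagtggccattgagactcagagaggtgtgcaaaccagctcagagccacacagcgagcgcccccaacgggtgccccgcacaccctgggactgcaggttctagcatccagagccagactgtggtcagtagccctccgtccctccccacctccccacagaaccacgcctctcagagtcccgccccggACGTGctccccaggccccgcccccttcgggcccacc
Slc7a11 (chr3:50443614-50443863, minus strand): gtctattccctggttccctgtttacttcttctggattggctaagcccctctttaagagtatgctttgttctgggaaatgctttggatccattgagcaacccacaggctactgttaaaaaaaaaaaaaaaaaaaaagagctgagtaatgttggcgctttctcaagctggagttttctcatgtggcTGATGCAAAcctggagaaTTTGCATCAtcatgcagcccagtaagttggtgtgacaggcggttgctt

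The ACGTG core was found in 10 of the 37 transporter windows and in 16.6% of all 27025 promoter windows. CACGTG was found in 5 of 37 and in 6.0% of all, and TGATGNAAN in 2 of 37 and in 3.5% of all. Slc16a3 held ACGTG beginning 27 and 14 bases before its start and Slc2a1 36 bases before, while the E-box of Slc16a1 began 200 bases before. Slc7a11 held TGATGCAAA 66 bases and, on the other strand, TTTGCATCA 48 bases before its start. Of the 10 holders of ACGTG, 3 were called higher in Mi2 epidermis (those shown), Slc7a6 was called lower and Slc3a2 was not called, while Slc16a12, Slc1a7, Slc7a14 and Slc7a15 had no epidermal reads and Slc1a6 at most 2.98 normalized reads. Of all 30 tested transporters 10 were called higher and 9 lower, and of all 14461 tested genes 15.1% and 13.1%. The windows shown were picked by call and motif, and a link between the 2 was not tested. A match describes the letters in this window and is not a shown binding site.

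The epidermal comparison asks how keratinocytes of Mi2 epidermis, where Chd4 was lower but not absent, differ from WT keratinocytes. In limma (log2 of normalized reads plus 1, Benjamini-Hochberg adjusted p under 0.05 over all genes tested), 30 of the 51 genes had a mean of at least 10 normalized reads and were tested. Of these, 10 were higher, 9 were lower and 11 were not called, while 28.2% of all 14461 tested genes were called, 15.1% higher and 13.1% lower. The share of transporters called was 63.3%. The median log2 change of the 30 was -0.09, against -0.03 over all genes tested, so higher and lower members balanced. Genes for carriers of glucose, lactate, glutamine, arginine and leucine stood among the higher ones, and each family but Slc3 also had lower members. Groups that do not overlap were common in this comparison, at 70.7% of genes tested. edgeR on the recovered reads called 28.4% of all genes. The calls leaned on both WT libraries, since limma called far fewer genes without either of them than in the full fit. Without Mi2 replicate 1 it also called fewer, and without Mi2 replicate 2 it called more. With no filter on low values the calls of Slc16a6, Slc1a1, Slc7a11, Slc2a6, Slc16a10, Slc16a13, Slc1a4 and Slc7a6 ended, and without the mean trend those of the same genes except Slc1a1.

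**Figure D1:**
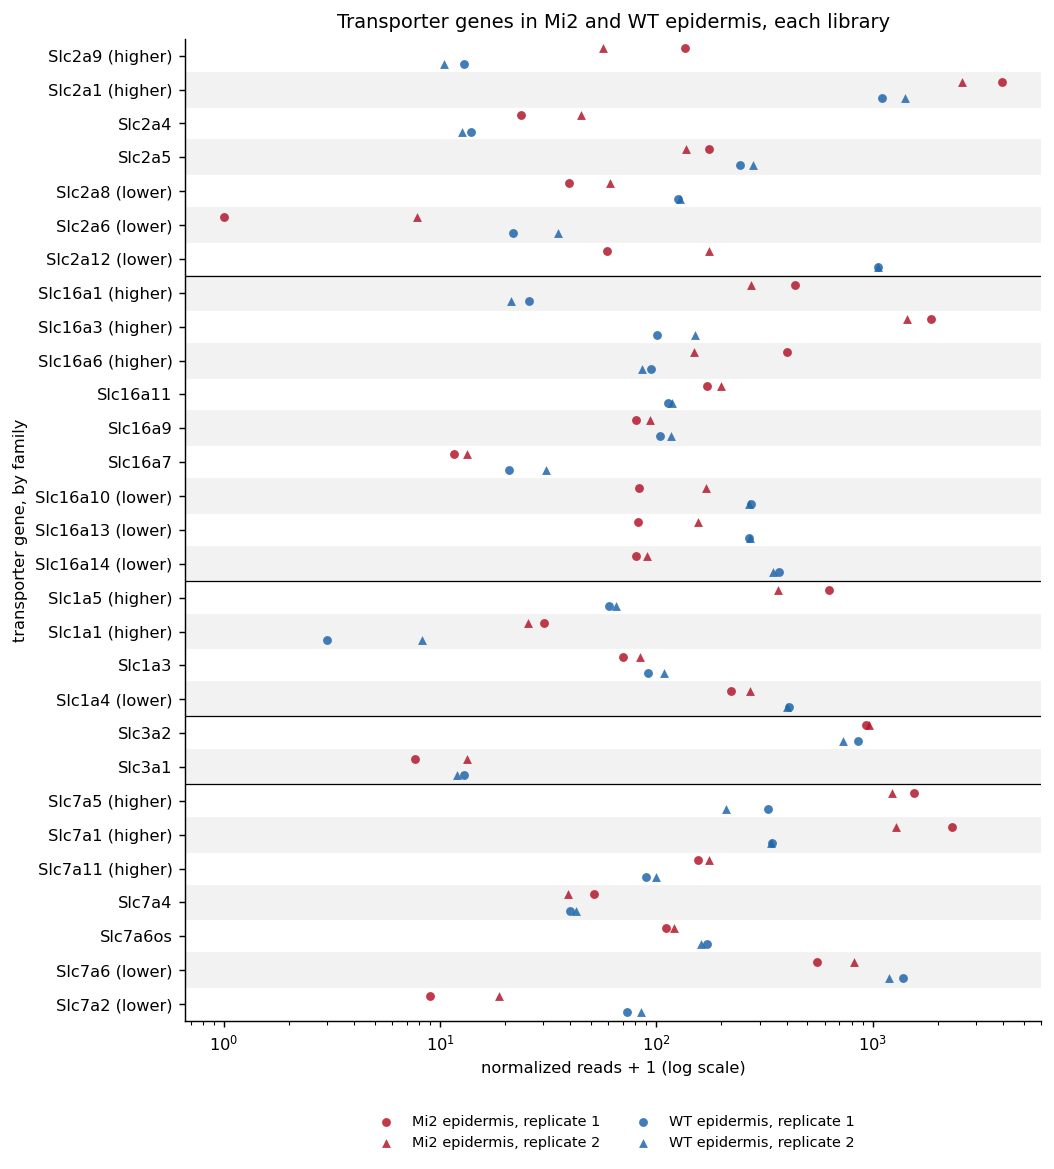
Normalized reads plus 1 (log scale) of the tested transporter genes, except 1 not reported here, in each Mi2 epidermis (red) and WT epidermis (blue) library, grouped by family, with genes called higher or lower marked beside their names. Slc16a1, Slc16a3, Slc1a5, Slc7a1 and Slc7a5 show red points far right of the blue ones, and Slc2a12, Slc16a14 and Slc7a2 show the opposite.

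Among glucose carriers, the epidermis shifted between members. Slc2a1 (GLUT1), the basal glucose carrier, had 3979 and 2588 normalized reads in Mi2 epidermis, against 1107 and 1417 in WT epidermis (log2 change 1.36, SE 0.266, adjusted p = 0.0122). Slc2a12 (GLUT12), a second glucose carrier, had 58.4 and 174 in Mi2 epidermis, against 1064 and 1063 in WT epidermis (log2 change -3.38, SE 0.456, adjusted p = 0.00389). The WT libraries were nearly identical for Slc2a12, and the Mi2 libraries differed from each other but stayed far below. Per kb of transcript, Slc2a1 thus made up 91.1% and 85.4% of the Slc2 family sum in Mi2 epidermis and 45.7% and 50.9% in WT epidermis. Slc2a12 made up 1.11% and 4.76% of that sum in Mi2 epidermis and 36.3% and 31.6% in WT epidermis. The ratio of Slc2a1 to Slc2a12 per kb was 82.4 and 17.9 in Mi2 epidermis and 1.26 and 1.61 in WT epidermis. The Slc2a1 call ended without WT replicate 1 (log2 change 1.18, adjusted p = 0.0782). In this bulk RNA, a change in the share of a cell type and a change in RNA per cell cannot be told apart.

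Of the other Slc2 genes 1 was higher and 2 were lower. Slc2a9, a urate transporter, had 135 and 55.9 normalized reads in Mi2 epidermis, against 11.9 and 9.44 in WT epidermis (log2 change 2.92, SE 0.496, adjusted p = 0.00768). Slc2a8 (GLUT8), which sits mainly on intracellular membranes, had 38.5 and 59.9 in Mi2 epidermis, against 125 and 128 in WT epidermis (log2 change -1.38, SE 0.312, adjusted p = 0.0189). Slc2a6 (GLUT6), a lysosomal member, had 0 and 6.81 in Mi2 epidermis, against 20.8 and 34.1 in WT epidermis (log2 change -3.31, SE 0.998, adjusted p = 0.0464). Both lower genes were called on groups that did not overlap, though Slc2a6 rests on few reads. The Slc2a8 call ended without WT replicate 1 (-1.40) or WT replicate 2 (-1.36), and the Slc2a6 call without WT replicate 1 (-3.65) or with scaling that left out the 50 most abundant genes (-3.37). Slc2a5, the fructose carrier, had 175 and 136 in Mi2 epidermis, against 244 and 278 in WT epidermis, and missed the threshold (adjusted p = 0.0506). Slc2a4, the insulin-responsive glucose carrier of muscle and fat, had 22.6 and 43.6 in Mi2 epidermis, against 12.9 and 11.6 in WT epidermis, and was not called (adjusted p = 0.0866). Slc2a3 (GLUT3) was nearly absent from keratinocytes, with 5.31 and 5.45 in Mi2 epidermis and 8.93 and 6.53 in WT epidermis, and was not tested.

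Of the lactate and pyruvate carriers, Slc16a1 and Slc16a3 had the largest rises among the 51 genes, and Slc16a7 was not called. Slc16a1 (MCT1), which moves lactate in either direction, had 439 and 274 normalized reads in Mi2 epidermis, against 24.8 and 20.3 in WT epidermis (log2 change 3.89, SE 0.319, adjusted p = 8.8e-04). Slc16a3 (MCT4), the lactate exporter of glycolytic cells, had 1865 and 1441 in Mi2 epidermis, against 100 and 150 in WT epidermis (log2 change 3.73, SE 0.259, adjusted p = 7.2e-04). Mi2 means were 15.8 and 13.2 times the WT means. The ratio of Slc16a3 to Slc16a1 per kb was 3.54 and 4.38 in Mi2 epidermis and 3.36 and 6.15 in WT epidermis, with overlapping groups. With RefSeq transcript lengths in place of GENCODE exon lengths, a choice added after the data were seen, it was 7.56 and 9.37 in Mi2 epidermis and 7.19 and 13.2 in WT epidermis. Of the Slc16 family sum per kb, Slc16a3 made up 42.1% and 34.6% in Mi2 epidermis and 3.91% and 5.89% in WT epidermis, or 57.6% and 49.7% in Mi2 epidermis and 6.67% and 9.82% in WT epidermis with RefSeq lengths.

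Among the other Slc16 genes 1 was called higher and 3 were called lower. Slc16a6 (MCT7), known in zebrafish as a ketone body carrier, had 401 and 148 normalized reads in Mi2 epidermis, against 93.3 and 84.9 in WT epidermis (log2 change 1.44, SE 0.440, adjusted p = 0.0477). The rise of Slc16a6 was carried more by Mi2 replicate 1, and its call was lost when either WT library (1.51 and 1.38) or Mi2 replicate 1 (0.73) was left out, and with scaling that left out the 50 most abundant genes (1.32) or the mitochondrially encoded genes (1.21). Slc16a14 had 79.6 and 89.9 in Mi2 epidermis, against 367 and 346 in WT epidermis (log2 change -2.06, SE 0.219, adjusted p = 0.00177). Slc16a10 (TAT1), a carrier of aromatic amino acids, had 82.3 and 168 in Mi2 epidermis, against 272 and 266 in WT epidermis (log2 change -1.19, SE 0.343, adjusted p = 0.0405). Slc16a13 had 80.9 and 154 in Mi2 epidermis, against 268 and 269 in WT epidermis (log2 change -1.26, SE 0.324, adjusted p = 0.0287). In all 3 lower genes every Mi2 value lay below every WT value. The Slc16a10 call was lost when either WT library (-1.17 and -1.20) or Mi2 replicate 1 (-0.68) was left out, and the Slc16a13 call without WT replicate 1 (-1.26) or WT replicate 2 (-1.26). Slc16a7 (MCT2), a further carrier of lactate and pyruvate, had 10.6 and 12.3 in Mi2 epidermis, against 19.8 and 29.8 in WT epidermis, and was not called (log2 change -1.03, adjusted p = 0.140). Slc16a11 and Slc16a9 were tested and not called, with log2 changes of 0.67 and -0.35.

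In the Slc1 family the leading gene changed from Slc1a4 to Slc1a5. Slc1a5 (ASCT2), the sodium-driven carrier of glutamine and other small neutral amino acids, had 630 and 365 normalized reads in Mi2 epidermis, against 59.5 and 63.9 in WT epidermis (log2 change 2.94, SE 0.300, adjusted p = 0.00151). Slc1a4 (ASCT1), a carrier of serine, alanine and cysteine, had 220 and 271 in Mi2 epidermis, against 409 and 401 in WT epidermis (log2 change -0.73, SE 0.207, adjusted p = 0.0392). Per kb, Slc1a5 made up 69.0% and 51.4% of the family sum in Mi2 epidermis and 10.9% and 11.7% in WT epidermis, and Slc1a4 made up 25.6% and 40.6% in Mi2 epidermis and 79.7% and 78.0% in WT epidermis. Slc1a1 (EAAC1), a glutamate and cysteine carrier, had 29.2 and 24.5 in Mi2 epidermis, against 1.98 and 7.26 in WT epidermis (log2 change 2.48, SE 0.655, adjusted p = 0.0308). Slc1a3 (GLAST), a glutamate carrier, had 69.0 and 83.1 in Mi2 epidermis, against 90.3 and 108 in WT epidermis, and was not called (log2 change -0.38, SE 0.274, adjusted p = 0.327). The Slc1a4 call was lost when either WT library (-0.71 and -0.74) or Mi2 replicate 1 (-0.58) was left out, and so was the Slc1a1 call (1.75 and 3.22 without a WT library, 2.36 without Mi2 replicate 1).

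The light chain Slc7a5 rose while its heavy chain was not called. Slc7a5 (LAT1), the exchanger that brings in leucine and other large neutral amino acids, had 1548 and 1227 normalized reads in Mi2 epidermis, against 329 and 208 in WT epidermis (log2 change 2.39, SE 0.266, adjusted p = 0.00210). Slc3a2 (4F2hc, CD98), the heavy chain that Slc7a5, Slc7a6, Slc7a7, Slc7a8, Slc7a10 and Slc7a11 join, had 934 and 963 in Mi2 epidermis, against 855 and 727 in WT epidermis (log2 change 0.27, SE 0.190, adjusted p = 0.322). The ratio of Slc7a5 to Slc3a2 per kb was 1.58 and 1.21 in Mi2 epidermis and 0.367 and 0.273 in WT epidermis. Slc7a5 exceeded Slc3a2 per kb in both Mi2 libraries and in neither WT library. Of the Slc3 pair, limma called 0 members, with 0 at an unadjusted p under 0.05. Slc3a1 (rBAT), the heavy chain of the cystine carrier of kidney, had 6.63 and 12.3 in Mi2 epidermis and 11.9 and 10.9 in WT epidermis.

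Cationic amino acid carriers split. Slc7a1 (CAT1), the main arginine and lysine carrier of many cells, had 2334 and 1279 normalized reads in Mi2 epidermis, against 342 and 338 in WT epidermis (log2 change 2.34, SE 0.292, adjusted p = 0.00307). Slc7a2 (CAT2), a further arginine carrier, had 7.96 and 17.7 in Mi2 epidermis, against 72.4 and 83.5 in WT epidermis (log2 change -2.60, SE 0.458, adjusted p = 0.00861). Slc7a6 (y+LAT2), which exchanges cationic for neutral amino acids, had 553 and 820 in Mi2 epidermis, against 1389 and 1197 in WT epidermis (log2 change -0.94, SE 0.241, adjusted p = 0.0285). Slc7a6 led the Slc7 family per kb in WT epidermis and Slc7a5 led it in Mi2 epidermis. Slc7a6 made up 15.7% and 27.6% of the family sum in Mi2 epidermis and 67.8% and 69.4% in WT epidermis. Slc7a5 made up 54.2% and 51.0% in Mi2 epidermis and 19.8% and 14.9% in WT epidermis. With RefSeq lengths Slc7a5 made up 46.2% and 44.4% in Mi2 epidermis and 17.1% and 12.7% in WT epidermis. The Slc7a2 call ended without WT replicate 1 (-2.71) or WT replicate 2 (-2.50), and the Slc7a6 call when either WT library (-0.83 and -1.04) or Mi2 replicate 1 (-0.65) was left out.

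Slc7a11 (xCT), which exchanges glutamate for cystine and so feeds glutathione synthesis, had 155 and 174 normalized reads in Mi2 epidermis, against 88.3 and 98.7 in WT epidermis (log2 change 0.81, SE 0.239, adjusted p = 0.0434). This was the smallest called rise. The call was lost whichever library was left out (0.73 to 0.89), and also with scaling that left out the 50 most abundant genes (0.68) or the mitochondrially encoded genes (0.58). Slc7a4 had 50.4 and 38.1 in Mi2 epidermis and 38.7 and 41.4 in WT epidermis, with overlapping groups. Slc7a8 (LAT2), a carrier of large and small neutral amino acids, had 14.6 and 6.81 in Mi2 epidermis and 0.992 and 7.99 in WT epidermis and was not tested. Slc7a6os was not called (110 and 120 in Mi2 epidermis, 170 and 160 in WT epidermis).

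Of the 21 genes below the mean of 10 in epidermis, 11 had no reads in any library and the other 10 reached at most 19 reads in a library. Those without reads were Slc16a12, Slc1a7, Slc2a10, Slc2a2, Slc2a7, Slc7a10, Slc7a12, Slc7a13, Slc7a14, Slc7a15 and Slc7a9, among them the liver glucose carrier Slc2a2 and the kidney cystine light chain Slc7a9. In the order of levels per kb, Slc2a1 came first in both groups, with 937 ± 280 normalized reads per kb in Mi2 epidermis and 360 ± 62.4 in WT epidermis (SD, n = 2 each). After it in Mi2 epidermis came Slc7a5 (374 ± 61.2), Slc16a3 (311 ± 56.4) and Slc3a2 (269 ± 5.82), whose library ranges of 331 to 418, 271 to 351 and 265 to 273 overlapped from one to the next except Slc7a5 with Slc3a2. With RefSeq lengths the order changed, with Slc16a3 at 580 to 751 per kb above Slc7a5 at 351 to 442 in Mi2 epidermis. In WT epidermis Slc7a6 (283 ± 29.7), Slc2a12 (a mean of 251) and Slc3a2 (224 ± 25.8) followed Slc2a1. The library ranges of these leading genes of WT epidermis did not overlap, at 316 to 404, 262 to 304, 251 and 206 to 242, but with RefSeq lengths Slc2a12 at 283 lay within Slc3a2 at 259 to 305. Summed over the members other than Slc7a6os, the level was 3336 and 2745 normalized reads per kb in Mi2 epidermis and 2000 and 1993 in WT epidermis.

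**Figure D2:**
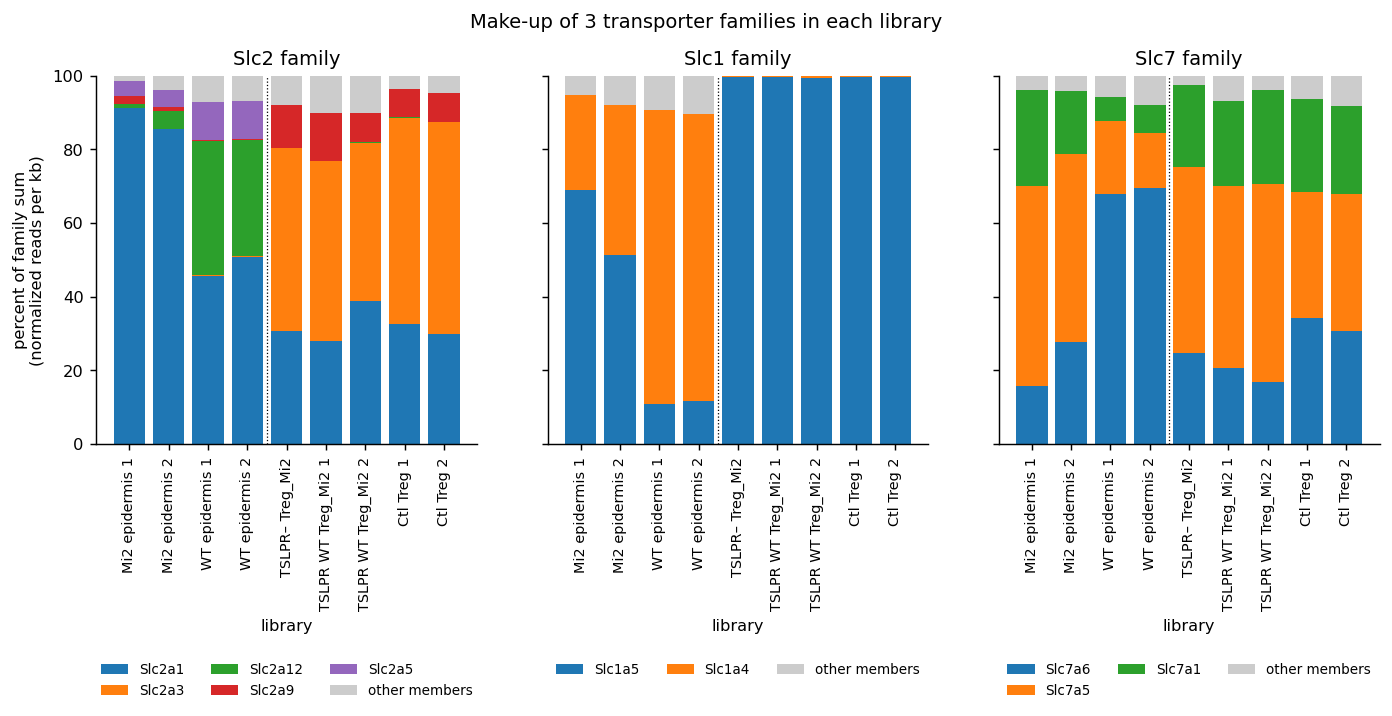
Share of each gene in its family's summed normalized reads per kb (percent), for Slc2, Slc1 and Slc7, in each of the 9 libraries, with members under 10% in every library pooled in grey. Slc2a1, Slc1a5 and Slc7a5 are the largest parts of their families in Mi2 epidermis. WT epidermis holds large parts of Slc2a12, Slc1a4 and Slc7a6, and Tregs hold Slc2a3 and almost only Slc1a5.

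Genes that work with these transporters moved in part. Of 21 enzymes that use the carried substrates, 16 were tested, 5 were higher, 3 were lower and 8 were not called. Hk2, which phosphorylates imported glucose, had 703 and 718 normalized reads in Mi2 epidermis, against 53.6 and 50.8 in WT epidermis (log2 change 3.74). Ldha, which makes lactate, had 7186 and 5046 in Mi2 epidermis, against 1465 and 1373 in WT epidermis (log2 change 2.09). Gls2, a glutaminase, had 117 and 79.0 in Mi2 epidermis, against 11.9 and 12.3 in WT epidermis (log2 change 2.89). The adjusted p of Hk2, Ldha and Gls2 was 4.1e-04, 0.00231 and 0.00346, and no Mi2 value overlapped a WT value.

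Of 18 genes in other amino acid transporter families, 15 were tested, 5 were higher, 1 was lower and 9 were not called. Slc38a4, a sodium-driven neutral amino acid carrier, had 509 and 395 normalized reads in Mi2 epidermis, against 12.9 and 24.7 in WT epidermis (log2 change 4.57, adjusted p = 8.4e-04). Slc38a3, a glutamine carrier, had 77.0 and 28.6 in Mi2 epidermis and 0.992 and 1.45 in WT epidermis. Slc43a1, a carrier of large neutral amino acids, had 9.29 and 10.9 in Mi2 epidermis, against 187 and 117 in WT epidermis (log2 change -3.75, adjusted p = 0.00144).

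Of 10 partners and turnover factors, 1 was higher, 1 was lower and 8 were not called. Cd44, which can hold Slc7a11 at the cell surface, had 8277 and 5434 normalized reads in Mi2 epidermis, against 1267 and 1557 in WT epidermis (log2 change 2.25, adjusted p = 0.00262). Arrdc3, an arrestin that helps remove membrane proteins, had 768 and 939 in Mi2 epidermis, against 2453 and 2165 in WT epidermis (log2 change -1.44, adjusted p = 0.00441). Bsg, which codes for basigin, was not called (log2 change 0.21, adjusted p = 0.499). Of 24 genes of amino acid sensing by mTORC1, 22 were tested, 2 were higher, 4 were lower and 16 were not called. Mtor, the kinase itself, had 735 and 599 in Mi2 epidermis, against 338 and 362 in WT epidermis (log2 change 0.92, adjusted p = 0.0170). Sesn1, a leucine-sensing inhibitor of the pathway, had 109 and 109 in Mi2 epidermis, against 297 and 226 in WT epidermis (log2 change -1.24, adjusted p = 0.0114), and Fnip1, a folliculin partner, had 145 and 159 in Mi2 epidermis, against 318 and 320 in WT epidermis (log2 change -1.07, adjusted p = 0.0118). The calls of Mtor, Sesn1 and Fnip1 were lost when either WT library was left out, and that of Mtor also without the trend (log2 change 0.69 to 1.07 over all settings).

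Of 13 transcription factors known to act on these transporters, 12 were tested, 5 were higher, 1 was lower and 6 were not called. Atf5, a relative of the stress factor ATF4, had 1132 and 865 normalized reads in Mi2 epidermis, against 218 and 234 in WT epidermis (log2 change 2.12, adjusted p = 0.00143). Epas1, which codes for the hypoxia factor HIF-2α, had 771 and 583 in Mi2 epidermis, against 256 and 279 in WT epidermis (log2 change 1.32, adjusted p = 0.00682). Myc had 2191 and 1597 in Mi2 epidermis, against 725 and 786 in WT epidermis (log2 change 1.31, adjusted p = 0.00735). The calls of Epas1 and Myc ended without WT replicate 1, with log2 changes within 1.09 to 1.53 and 1.07 to 1.54 over all settings. These lists stand against the background of 28.2% of genes called.

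Some markers of other cells differed between the epidermal groups as well. The 10 keratinocyte markers summed to 348191 and 286531 normalized reads in Mi2 epidermis and 282815 and 268575 in WT epidermis, and 1 of the 10 was called, lower. The 9 Langerhans cell markers summed to 2398 and 2590 in Mi2 epidermis and 702 and 724 in WT epidermis, mostly from Epcam, Mfge8 and Cd74. These 3 were called higher, of 6 tested, and H2-Aa, H2-Ab1 and H2-Eb1 were not called. H2-Eb1 had 46.4 and 70.8 in Mi2 epidermis and 54.6 and 55.9 in WT epidermis. Cd207 and Itgax were under the mean of 10 and not tested, and Cd207 overlapped between the groups. Whether the number of Langerhans cells differed was not tested. The leukocyte gene Ptprc was near 0, at 5.31 and 1.36 in Mi2 epidermis and 4.96 and 4.36 in WT epidermis. Krt1 and Krt10, keratins of differentiating layers, stood at 4503 and 8896, and 4945 and 17707, in Mi2 epidermis and at 21522 and 18749, and 28432 and 28167, in WT epidermis. The 8 fibroblast markers summed to 3170 and 1764 in Mi2 epidermis and 853 and 519 in WT epidermis, of which Sparc gave 2944 and 1711 in Mi2 epidermis and 595 and 400 in WT epidermis. Other fibroblast markers were low, with Col1a1 at 18.6 and 4.09 in Mi2 epidermis and 72.4 and 12.3 in WT epidermis. Of 5 tested erythroid markers 4 were lower, and the 6 listed summed to 214 and 376 in Mi2 epidermis and 858 and 2754 in WT epidermis. The part of these cells and of the mitochondrial share in the transporter differences was not tested.

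In Tregs, 22 of the 51 genes passed the mean of 10 and were tested in 3 comparisons. They came from a shared limma fit to the 5 libraries, which takes the spread of the unreplicated TSLPR– group from the other groups. TSLPR WT Treg_Mi2 against Ctl Treg asks how Tregs of Mi2 animals with an intact receptor differ from control Tregs. Here 7 transporters were higher, 1 was lower and 14 were not called, a share of 36.4%, while 27.7% of all 12206 tested genes were called, 14.7% higher and 13.0% lower. The median log2 change of the 22 was 0.31, against -0.01 over all genes. edgeR called 27.8% of all genes, and groups that do not overlap made up 65.6%. Slc16a1, Slc16a3, Slc16a6, the aromatic amino acid carrier Slc16a10, Slc7a1 and Slc7a5 were 6 of the 7 higher genes. The most abundant carriers of glucose and glutamine were not called. With no filter on low values limma called 0 of all 16831 genes in this comparison, so no Treg call of any gene held under that setting.

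**Figure D3:**
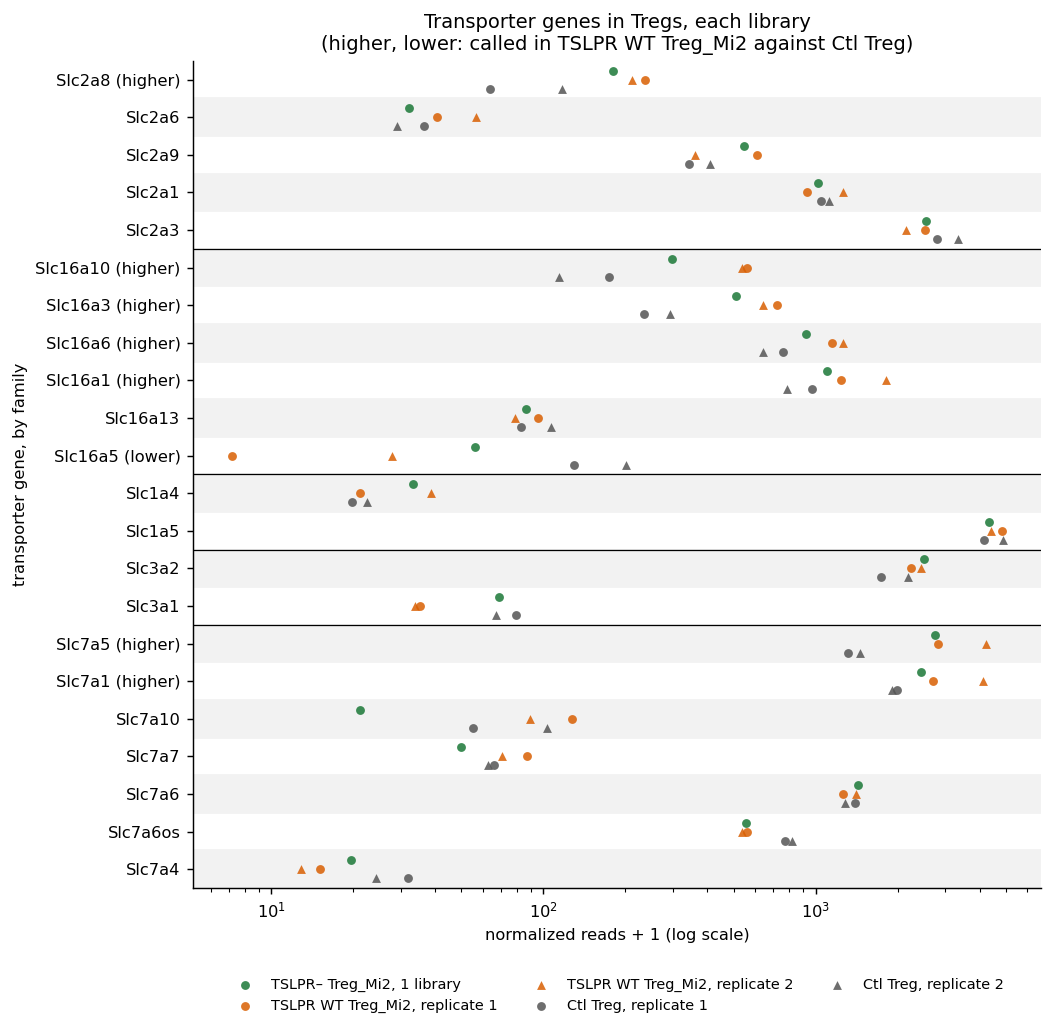
Normalized reads plus 1 (log scale) of the 22 tested transporter genes in TSLPR– Treg_Mi2 (green), TSLPR WT Treg_Mi2 (orange) and Ctl Treg (grey) libraries, grouped by family, with genes called in TSLPR WT Treg_Mi2 against Ctl Treg marked. For Slc16a10, Slc16a3, Slc2a8 and Slc7a5 the orange points lie right of the grey ones with the green point between them, and for Slc1a5 and Slc2a1 the orange and grey points overlap.

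The lactate carriers Slc16a1 and Slc16a3 were higher in TSLPR WT Treg_Mi2, and Slc16a7 was under the mean of 10 and not tested. Slc16a3 had 510 normalized reads in TSLPR– Treg_Mi2, 721 and 642 in TSLPR WT Treg_Mi2 and 234 and 291 in Ctl Treg (TSLPR WT against Ctl, log2 change 1.38, SE 0.249, adjusted p = 9.2e-04). Slc16a1 had 1102 in TSLPR– Treg_Mi2, 1238 and 1815 in TSLPR WT Treg_Mi2 and 968 and 783 in Ctl Treg (log2 change 0.78, SE 0.238, adjusted p = 0.0242). The Slc16a1 call ended without Ctl replicate 2 (0.63) or TSLPR WT replicate 2 (0.51) and without the trend. The ratio of Slc16a3 to Slc16a1 per kb was 0.823 in TSLPR– Treg_Mi2, 1.04 and 0.630 in TSLPR WT Treg_Mi2 and 0.431 and 0.662 in Ctl Treg, with overlapping groups.

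Slc16a5 and Slc16a10 had the largest changes among the 22 tested genes of the 51. Slc16a10 had 297 normalized reads in TSLPR– Treg_Mi2, 557 and 535 in TSLPR WT Treg_Mi2 and 173 and 113 in Ctl Treg (TSLPR WT against Ctl, log2 change 1.96, SE 0.286, adjusted p = 1.8e-04). Slc16a6 had 918 in TSLPR– Treg_Mi2, 1145 and 1259 in TSLPR WT Treg_Mi2 and 755 and 642 in Ctl Treg (log2 change 0.79, SE 0.219, adjusted p = 0.0151). The Slc16a6 call ended without Ctl replicate 2 (0.67) or TSLPR WT replicate 2 (0.72) and without the trend. Slc16a5 (MCT6) was the only called fall, with 54.9 in TSLPR– Treg_Mi2, 6.17 and 26.9 in TSLPR WT Treg_Mi2 and 129 and 200 in Ctl Treg (log2 change -3.52, SE 0.555, adjusted p = 3.3e-04). B cell markers were lower as well. Within Ctl Treg, replicate 2 had more Slc16a5 than replicate 1 and a lower B cell sum. From 2 libraries no relation between these values can be read. The 8 B cell markers were all called lower in TSLPR WT Treg_Mi2 against Ctl Treg, and 7 of 8 in TSLPR– Treg_Mi2 against Ctl Treg. They summed to 1048 in TSLPR– Treg_Mi2, 874 and 1163 in TSLPR WT Treg_Mi2 and 5608 and 2671 in Ctl Treg. None of the 8 was at 0 in any library. Of 6 tested CD8 T and NK cell markers 1 was higher and 4 were lower in TSLPR WT Treg_Mi2. Their list summed to 3193 in TSLPR– Treg_Mi2, 3275 and 3146 in TSLPR WT Treg_Mi2 and 2616 and 2335 in Ctl Treg. The rise of this sum came from the 1 higher marker alone. Of 8 tested myeloid and dendritic cell markers 2 were higher, 0 were lower and 6 were not called in TSLPR WT Treg_Mi2. The 10 listed summed to 1929 in TSLPR– Treg_Mi2, 2266 and 2306 in TSLPR WT Treg_Mi2 and 1345 and 1339 in Ctl Treg. The part of these cells in the fall of Slc16a5 and in the other Treg differences was not tested. Slc16a13 overlapped in all groups and was not called (log2 change -0.12, adjusted p = 0.838).

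The leucine carrier Slc7a5 and the arginine carrier Slc7a1 were higher. Slc7a5 had 2736 normalized reads in TSLPR– Treg_Mi2, 2809 and 4230 in TSLPR WT Treg_Mi2 and 1312 and 1449 in Ctl Treg (TSLPR WT against Ctl, log2 change 1.32, SE 0.227, adjusted p = 6.4e-04). Slc7a1 had 2446 in TSLPR– Treg_Mi2, 2708 and 4121 in TSLPR WT Treg_Mi2 and 1992 and 1906 in Ctl Treg (log2 change 0.78, SE 0.227, adjusted p = 0.0194). For both genes TSLPR WT replicate 2 was the highest library. Slc7a1 was no longer called without Ctl replicate 2 (0.75) or TSLPR WT replicate 2 (0.47), nor without the trend. Slc3a2 had 2496 in TSLPR– Treg_Mi2, 2248 and 2437 in TSLPR WT Treg_Mi2 and 1745 and 2181 in Ctl Treg, and was not called (log2 change 0.26, SE 0.208, adjusted p = 0.376). The ratio of Slc7a5 to Slc3a2 per kb was 0.877 in TSLPR– Treg_Mi2, 1.0 and 1.39 in TSLPR WT Treg_Mi2 and 0.602 and 0.532 in Ctl Treg, so it did not overlap between the last 2 groups. Slc3a1 had 67.5 in TSLPR– Treg_Mi2, 34.4 and 32.9 in TSLPR WT Treg_Mi2 and 78.1 and 65.8 in Ctl Treg, and missed the threshold (adjusted p = 0.0586).

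The abundant carriers of glucose and glutamine were not called. Slc2a3 (GLUT3), the leading Slc2 gene of these Tregs, had 2552 normalized reads in TSLPR– Treg_Mi2, 2516 and 2146 in TSLPR WT Treg_Mi2 and 2782 and 3342 in Ctl Treg, and was not called (log2 change -0.39, SE 0.207, adjusted p = 0.176). Slc2a1 had 1016 in TSLPR– Treg_Mi2, 931 and 1256 in TSLPR WT Treg_Mi2 and 1045 and 1122 in Ctl Treg (log2 change -0.00, SE 0.225, adjusted p = 0.996). Slc1a5 had 4344 in TSLPR– Treg_Mi2, 4853 and 4410 in TSLPR WT Treg_Mi2 and 4141 and 4875 in Ctl Treg (log2 change 0.04, SE 0.202, adjusted p = 0.901). TSLPR WT Treg_Mi2 and Ctl Treg overlapped for Slc2a1 and Slc1a5, and a miss of the threshold does not show that levels were equal. Slc1a5 made up 99.5% of the Slc1 sum per kb in TSLPR– Treg_Mi2, 99.6% and 99.3% in TSLPR WT Treg_Mi2 and 99.6% and 99.6% in Ctl Treg. Slc2a8 was the called sugar carrier, with 179 in TSLPR– Treg_Mi2, 236 and 210 in TSLPR WT Treg_Mi2 and 62.7 and 116 in Ctl Treg (log2 change 1.37, SE 0.348, adjusted p = 0.00901). Its call ended without Ctl replicate 1 (0.93). Slc2a6 had 31.2 in TSLPR– Treg_Mi2, 39.7 and 55.7 in TSLPR WT Treg_Mi2 and 35.5 and 28.1 in Ctl Treg, and was not called (log2 change 0.56, adjusted p = 0.380).

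The other tested genes were Slc2a9, Slc1a4, Slc7a4, Slc7a6, Slc7a7, Slc7a10 and Slc7a6os, none called in TSLPR WT Treg_Mi2 against Ctl Treg, with log2 changes from -0.99 (Slc7a4) to 0.50 (Slc7a10). Slc7a6 overlapped between TSLPR WT Treg_Mi2 and Ctl Treg, at 1426 in TSLPR– Treg_Mi2, 1263 and 1404 in TSLPR WT Treg_Mi2 and 1398 and 1282 in Ctl Treg. Of the 29 genes under the mean of 10, 5 had no reads in any Treg library (Slc2a7, Slc7a12, Slc7a13, Slc7a15 and Slc7a9), and the other 24 reached at most 17 reads in a library. Slc7a11, Slc7a8 and Slc1a3 were among them, at most 7.94, 6.97 and 3.21 normalized reads. Slc1a5 had the highest level per kb in every Treg group, with 1581 normalized reads per kb in TSLPR– Treg_Mi2, 1686 ± 114 in TSLPR WT Treg_Mi2 and 1641 ± 189 in Ctl Treg (SD, n = 2 for the last 2). Slc7a5 came next in TSLPR WT Treg_Mi2, at 802 and 1208 per kb in its libraries, which overlapped Slc3a2 at 803 and 870. In Ctl Treg Slc2a3 came next, at 705 to 847 per kb, which overlapped Slc3a2 at 623 to 779.

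The comparison of TSLPR– Treg_Mi2 with Ctl Treg, which shares the Ctl libraries with the one above, asks what differs in Tregs of Mi2 animals without the receptor. limma called 0 of the 22 transporters, with 6 at an unadjusted p under 0.05, and edgeR also called 0, while limma called 3.15% of all genes (384 of 12206, 2.63% higher and 0.516% lower) and edgeR 3.33%. The median log2 change was 0.04, equal to that of all genes tested. Slc7a10 came nearest, at a log2 change of -1.83 (adjusted p = 0.0734). Slc7a5 followed at 0.99 (SE 0.278, adjusted p = 0.0757), and was called without TSLPR WT replicate 1 (adjusted p = 0.0272) or TSLPR WT replicate 2 (0.0287), which enter only through the shared spread. Slc16a10 and Slc16a3 had log2 changes of 1.08 and 0.96 (adjusted p = 0.134 and 0.123).

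TSLPR– Treg_Mi2 against TSLPR WT Treg_Mi2 compares Tregs of Mi2 animals without and with the receptor. With 1 TSLPR– library, a change with the receptor and a difference between animals or preparations cannot be told apart. Of the 22 transporters 0 were higher and 1 was lower, a share of 4.55%, beside 0.942% of all genes with limma (0.737% higher and 0.205% lower) and 0.983% with edgeR. limma found 3 at an unadjusted p under 0.05. The 1 gene was Slc7a10 (Asc-1), a carrier of small neutral amino acids, with 20.3 normalized reads in TSLPR– Treg_Mi2, 127 and 88.6 in TSLPR WT Treg_Mi2 and 54.4 and 102 in Ctl Treg (log2 change -2.33, SE 0.511, adjusted p = 0.0470). The single TSLPR– library lay below all others, and the other 2 groups overlapped. This call ended with edgeR (adjusted p = 0.0656), with a mean of at least 50 (0.0538), with no filter (0.452) and without the trend (0.213). All 8 transporters called in TSLPR WT Treg_Mi2 against Ctl Treg had their TSLPR– value between the ranges of those 2 groups. The same held for 2595 of all 3383 called genes (76.7%), so this position was common.

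Of the other gene lists in Tregs, 5 of 17 tested enzymes were higher in TSLPR WT Treg_Mi2 against Ctl Treg and 0 lower. The counts of this and the following lists stand against 27.7% of all genes called, 14.7% higher and 13.0% lower. Asns, asparagine synthetase, had 240 normalized reads in TSLPR– Treg_Mi2, 246 and 398 in TSLPR WT Treg_Mi2 and 73.4 and 52.1 in Ctl Treg (log2 change 2.32, adjusted p = 1.8e-04, and 1.94, adjusted p = 0.0188, for TSLPR– against Ctl). Bcat1, which transaminates leucine, had 540 in TSLPR– Treg_Mi2, 782 and 1320 in TSLPR WT Treg_Mi2 and 386 and 246 in Ctl Treg (log2 change 1.72, adjusted p = 6.2e-04). Hk2 had 392 in TSLPR– Treg_Mi2, 486 and 565 in TSLPR WT Treg_Mi2 and 228 and 191 in Ctl Treg (log2 change 1.32, adjusted p = 0.00170). No TSLPR WT Treg_Mi2 value of these enzymes overlapped a Ctl Treg value. The call of Asns in TSLPR– against Ctl ended without Ctl replicate 2 and without the trend (1.69 to 2.18 over its settings).

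Of 12 tested genes in other amino acid transporter families 2 were higher in TSLPR WT Treg_Mi2 and 10 not called. Slc43a3, whose human protein carries purine bases, had 986 normalized reads in TSLPR– Treg_Mi2, 1383 and 1410 in TSLPR WT Treg_Mi2 and 361 and 299 in Ctl Treg (log2 change 2.08, adjusted p = 1.7e-05, and 1.58, adjusted p = 0.00643, for TSLPR– against Ctl). Slc36a4, an amino acid carrier, had 289 in TSLPR– Treg_Mi2, 442 and 402 in TSLPR WT Treg_Mi2 and 277 and 203 in Ctl Treg (log2 change 0.83, adjusted p = 0.0346). Of 10 partners and turnover factors 1 was higher and 1 lower. Emb, which codes for embigin, had 2495 in TSLPR– Treg_Mi2, 5029 and 3241 in TSLPR WT Treg_Mi2 and 2654 and 1843 in Ctl Treg (log2 change 0.87, adjusted p = 0.0176). Nedd4l, a ubiquitin ligase that removes membrane transporters, had 396 in TSLPR– Treg_Mi2, 142 and 286 in TSLPR WT Treg_Mi2 and 528 and 599 in Ctl Treg (log2 change -1.48, adjusted p = 0.00301). The Slc36a4 call ended without Ctl replicate 2, TSLPR WT replicate 1 or TSLPR WT replicate 2 and the Emb call without Ctl replicate 2 or TSLPR WT replicate 1, with log2 changes within 0.60 to 1.05 and 0.55 to 1.18 over all settings. Both calls also ended without the trend, as did that of Slc43a3 in TSLPR– against Ctl.

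Of 24 genes of amino acid sensing by mTORC1, 1 was higher, 4 were lower and 19 were not called in TSLPR WT Treg_Mi2 against Ctl Treg. Sesn1 had 3545 normalized reads in TSLPR– Treg_Mi2, 1820 and 1791 in TSLPR WT Treg_Mi2 and 4858 and 4170 in Ctl Treg (log2 change -1.32, adjusted p = 2.4e-04). Sesn3, a relative, had 1178 in TSLPR– Treg_Mi2, 666 and 972 in TSLPR WT Treg_Mi2 and 1760 and 2048 in Ctl Treg (log2 change -1.24, adjusted p = 0.00126). Fnip2 had 176 in TSLPR– Treg_Mi2, 207 and 219 in TSLPR WT Treg_Mi2 and 97.0 and 50.5 in Ctl Treg (log2 change 1.59, adjusted p = 0.00429). Sesn1 was called lower and Fnip2 called higher in the epidermal comparison too. Of 12 transcription factors tested, 0 were higher and 2 were lower. Myc had 3561 in TSLPR– Treg_Mi2, 1774 and 2596 in TSLPR WT Treg_Mi2 and 3367 and 3271 in Ctl Treg (log2 change -0.63, adjusted p = 0.0468), and Ddit3, a stress-induced factor, had 341 in TSLPR– Treg_Mi2, 206 and 225 in TSLPR WT Treg_Mi2 and 333 and 397 in Ctl Treg (log2 change -0.75, adjusted p = 0.0484). Myc and Ddit3 lay close to the threshold, and both calls ended without Ctl replicate 1, Ctl replicate 2 or TSLPR WT replicate 1, that of Ddit3 also without TSLPR WT replicate 2, with log2 changes within -0.90 to -0.35 and -0.88 to -0.62 over all settings. Both calls also ended without the trend, that of Myc with edgeR and that of Ddit3 with a pseudocount of 5.

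The 2 cell types were set side by side for the 18 transporters tested in both, with no library shared between the comparisons. Slc16a1, Slc16a3, Slc16a6, Slc7a1 and Slc7a5 were called higher both in Mi2 epidermis against WT epidermis and in TSLPR WT Treg_Mi2 against Ctl Treg, which is 5 of the 10 higher epidermal genes and 5 of the 7 higher Treg genes. Their log2 changes were 3.89, 3.73, 1.44, 2.34 and 2.39 in epidermis and 0.78, 1.38, 0.79, 0.78 and 1.32 in Tregs. Of all genes tested, 15.1% were called higher in epidermis and 14.7% in Tregs. The share of all genes called higher in both was not computed, so how common such sharing was is not known. Slc16a10 and Slc2a8 were lower in Mi2 epidermis and higher in TSLPR WT Treg_Mi2. Slc2a1 and Slc1a5, which rose in epidermis, were not called in Tregs. Another 4 genes were tested in Tregs but not in epidermis (Slc16a5, Slc2a3, Slc7a10 and Slc7a7), 12 in epidermis but not in Tregs, and 17 in neither. The 2 tables were normalized separately, so levels and sizes of change are not set against each other across them.

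**Figure D4:**
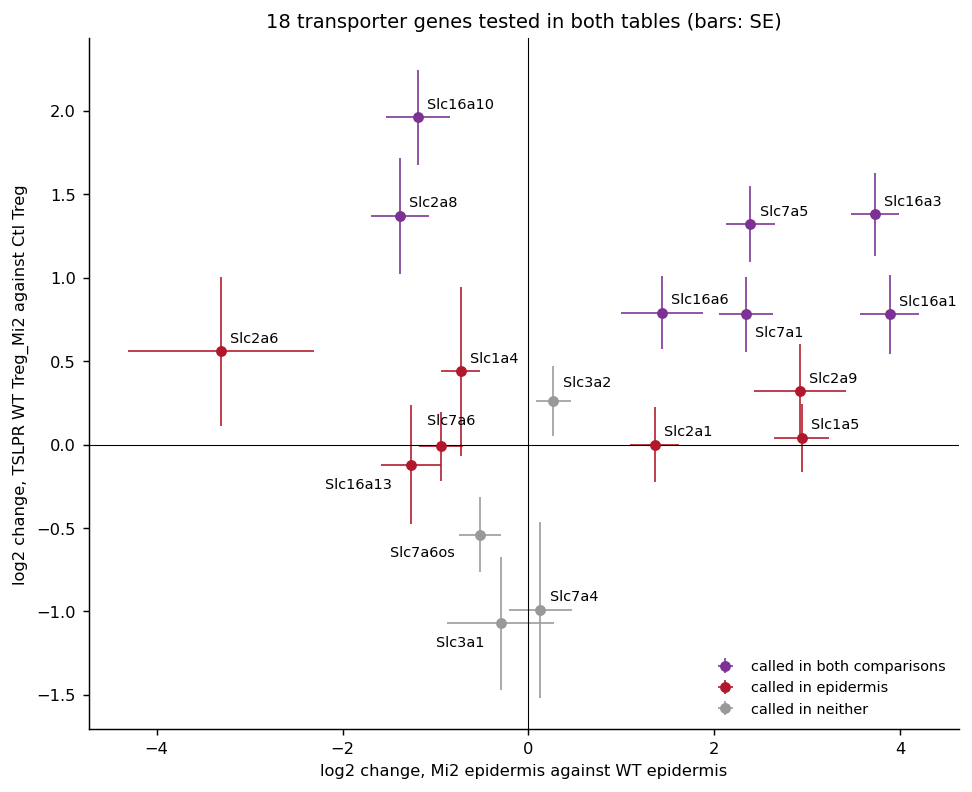
Log2 change with SE of the 18 transporter genes tested in both tables, in TSLPR WT Treg_Mi2 against Ctl Treg (y axis) over Mi2 epidermis against WT epidermis (x axis), coloured by where they were called. Slc16a1, Slc16a3, Slc16a6, Slc7a1 and Slc7a5 lie in the upper right, and Slc16a10 and Slc2a8 lie in the upper left.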

How the data were processed

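RNA sequencing data of 9 libraries in 2 deposited tables were used. Per the submitters' processing notes, bcl2fastq 1.8.3, STAR, DESeq2 and the builds mm9 and mm10 were used. For the epidermal libraries, the counting program was not given in the sources used here. The Treg table was made with HOMER, per the file headers, from RefSeq exons on mm9. The deposited values (signal) are normalized read counts, whole reads times 1 factor per library: all values above 0 were whole within 0.05 reads once divided by that factor, and edgeR 4.0.16 (quasi-likelihood, TMM) was run on the reads so recovered as an alternative, calling 4107 epidermal genes. Whether counting used strand is not stated, so overlapping genes on opposite strands may share reads. Where a symbol had several Treg transcripts, that of highest mean was kept. Levels per kb used GENCODE exon lengths in epidermis (RefSeq transcript lengths as an alternative added after the data were seen) and the deposited transcript lengths in Tregs.

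The test was limma 3.58.1 with trend (R 4.3.3) on log2(value + 1), for genes with a mean of at least 10 over the fitted libraries, two-sided and Benjamini-Hochberg adjusted over all genes tested. Fold changes on this scale understate changes of low genes. The fit was also run on simulated counts with known changes, whose outcome is not given here. Alternatives were a pseudocount of 5, no filter, a mean of at least 50, 2 other scalings, no trend, edgeR, the longest transcript, each replicate left out and a replicate block.

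Named were 12 transporters fixed by name, called members with a mean of at least 20 (up to 12 in epidermis and 8 per Treg comparison; the other called members are given as well), up to 3 called genes with the smallest p of each other list and the 3 most abundant genes of marker lists. Members and lists were chosen with earlier results of these data known. Intervals and floors of reads would cover counting error only. Values of 1 transporter and 1 marker are not reported here; both stay in the counts and sums.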

Additional observations from a re-analysis of the deposited data

Results flagged for a closer look

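Slc16a10 fell by 1.19 on the log2 scale (-1.19) in Mi2 epidermis against WT epidermis and rose by 1.96 in TSLPR WT Treg_Mi2 against Ctl Treg. Slc2a8 did the same, at -1.38 in epidermis and 1.37 in Tregs. For Slc2a6 every Mi2 value lay below every WT value (log2 change -3.31), and every TSLPR WT Treg_Mi2 value lay above every Ctl Treg value (0.56, not called). These 3 genes drew attention because the groups compared did not overlap in either cell type and lay in opposite directions. Such groups were common, at 70.7% of all genes tested in epidermis and 65.6% in TSLPR WT Treg_Mi2 against Ctl Treg. For Slc2a6 the TSLPR– Treg_Mi2 value of 31.2 lay within the Ctl Treg values of 35.5 and 28.1. The difference between the cell types was not tested, as the tables were normalized separately. Slc7a10 differed between TSLPR– Treg_Mi2 and TSLPR WT Treg_Mi2 by -2.33 on the log2 scale, in the test of the difference itself, with 1 TSLPR– library.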

How the results depend on the processing

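In epidermis, 8 of the 19 called transporters (Slc16a14, Slc16a1, Slc16a3, Slc1a5, Slc2a12, Slc2a9, Slc7a1 and Slc7a5) stayed called under every alternative, and no called transporter turned its direction. Lower calls numbered 4 with no filter and 4 without the trend, against 9. With 1 library left out, higher calls ran from 6 to 9 and lower calls from 2 to 9; without WT replicate 1 or WT replicate 2, 7.69% or 9.97% of all genes were called, against 28.2%. Without Mi2 replicate 1 fewer of all genes were called than in the full fit, and without Mi2 replicate 2 more. With the replicate block 11 were higher and 10 lower. The labels do not say that replicate numbers pair samples, and with 2 pairs their deviations correlated at 0.123 in epidermis and 0.092 in Tregs.

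In TSLPR WT Treg_Mi2 against Ctl Treg, 0 were higher and 0 lower with no filter, where 0 of all genes were called, and 4 higher and 3 lower without the trend; the cause was not tested. With the replicate block 7 were higher and 2 lower, and with 1 library left out 4 to 7 were higher and 1 to 1 lower. In TSLPR– Treg_Mi2 against Ctl Treg, leaving out 1 library gave 0 to 1 higher and 0 to 2 lower. In TSLPR– against TSLPR WT Treg_Mi2 the 1 lower call was 0 with no filter, a mean of at least 50, no trend or edgeR, and 0 to 1 were higher with 1 library left out. No block was possible with the single TSLPR– library.

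Changes near 0 turned sign. Slc2a1 in TSLPR WT against Ctl was 0.01 with edgeR, 0.05 without Ctl replicate 2 and within -0.22 to 0.21 with 1 library left out, against -0.00. Slc1a5 there was within -0.08 to 0.16 with 1 library left out, and -0.03 without TSLPR WT replicate 1. In TSLPR– against Ctl, Slc2a6 ran from -0.18 to 0.15 and Slc1a5 from -0.17 to 0.07 with 1 library left out. In TSLPR– against TSLPR WT, Slc2a1 ran from -0.31 to 0.13. None of these was called. The transporters below the mean of 10, which were not tested, reached at most 19 reads in an epidermal library and 17 in a Treg library.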

Other observations

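Slc2a4rg-ps, which matched the symbols in the Treg table alone, had 753.83 normalized reads in TSLPR– Treg_Mi2, 770.87 and 438.0 in TSLPR WT Treg_Mi2 and 1375.06 and 1721.09 in Ctl Treg. All 3 Treg_Mi2 libraries lay below both Ctl libraries.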
